A study of Mus musculus with 16 samples.

Results

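The comparison described here set cells that received both PRMT1 siRNA and p53 siRNA against cells that received control siRNA, all without TGF-beta, in MEC1, an established mouse epicardial cell line. It was chosen by sample label: 2 libraries of both siRNAs and 2 of control siRNA, 4 of the 16 libraries of the series. The question was which changes seen with 1 siRNA returned to the control level, and which stayed, when both targets were reduced. The groups used are cells with both siRNAs, cells with PRMT1 siRNA, cells with p53 siRNA and cells with control siRNA, none given TGF-beta, and, as other libraries for the same contrast, both siRNAs and control siRNA with TGF-beta, always 2 libraries per group. Every group, control included, was given an siRNA, and all come from 1 line. The series calls the 2 libraries biological replicates without saying how they were grown, so p-values measure the spread between these libraries, which may be partly technical. siRNA amounts and sequences, and the TGF-beta dose and time, are not given in the sources used here.

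PRMT1 is the main enzyme placing asymmetric dimethyl marks on arginine, many of them on RNA-binding proteins. p53, encoded by Trp53, is a transcription factor that switches on arrest, repair and death genes, among them Cdkn1a and the gene of its own ubiquitin ligase, Mdm2, while Mdm4 binds p53 and holds its activity down. The epicardium is the mesothelial sheet around the heart whose cells can become mesenchymal, invade and give rise to smooth muscle and fibroblasts, a change that TGF-beta promotes.

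The cells carried the label's markers. Wt1, the epicardial transcription factor, lay between 257 and 329 CPM (read counts scaled to library size, with TMM, the trimmed mean of M-values) in the 8 libraries without TGF-beta, and Upk3b, Lrrn4, Gpm6a, Aldh1a1 and Gata6 each lay between 173 and 719 CPM, whereas Krt8, Krt19 and Aldh1a2 lay between 0.349 and 1.66 CPM. Of 12 haematopoietic markers, 5 had no count in these libraries, Ptprc, Adgre1, Tyrobp and Laptm5 among them. Summed levels were 26.8 to 29.8 CPM with both siRNAs and 17.1 to 18.1 CPM in control for 12 endothelial markers (Tie1, Erg and Sox17 at 0), 5.26 to 6.20 and 20.7 to 22.3 CPM for 14 cardiomyocyte markers (Myl2 at 0), 3.67 to 4.15 and 3.05 to 4.46 CPM for the haematopoietic ones, and 63.1 to 71.6 and 84.3 to 90.3 CPM for 12 neural markers, most of it Mbp. In bulk RNA, fewer cells of a type and less RNA per cell cannot be told apart. Library totals were 29070046 and 22336739 counts with both siRNAs and 22141222 and 20605046 in control, which sets the depth behind each CPM value. One technical measure differed between the libraries. Genes in the shortest sixth by transcript length (up to 1595 bases) had a median log2 change of 0.11 with both siRNAs against control. Those in the longest sixth (from 5510 bases) had a median of -0.12. By library, the median of the shortest sixth minus that of the longest was 0.38 and 0.099 for replicates 1 and 2 of both siRNAs. In control it was 0.18 and -0.15, so both siRNAs and control overlapped. With PRMT1 siRNA it was -0.16 and -0.11, and with p53 siRNA -0.092 and -0.095, all below the libraries of both siRNAs. Comparisons of both siRNAs with a single siRNA, which the return classes below use, therefore carry this difference. The part of transcript length in the results below was not tested beyond a repeat with length offsets.

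With both siRNAs, 2096 of 14875 genes tested (14.1%) differed from control at an adjusted p under 0.05 (edgeR quasi-likelihood test, Benjamini-Hochberg over all genes tested). Of these, 1003 rose (6.74%) and 1093 fell (7.35%). Counts of risen and fallen members in the gene lists below are to be read beside these shares. The changes were mostly small: the median size among called genes was 0.41 on the log2 scale, 155 rose and 65 fell by 2-fold or more, and the median over all genes was 0.0023. The count rested on the libraries used. It was 696 without replicate 1 of both siRNAs, 1171 without control replicate 2, between 1336 and 1358 without a PRMT1 or p53 siRNA library, and 690 when the 16 libraries were fitted together, of which 682 were among the 2096. The fit of 16 libraries adds those with TGF-beta, and earlier results of these data found 1 of these far from its partner. Its part in the counts of that fit was not tested. DESeq2 called 1430, with 505 higher and 925 lower.

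Both targets were lower than in control. Prmt1 (chromosome 7, 44975989 to 44986492, minus strand, mm10) had 81 and 70.04 CPM with both siRNAs, 76.8 and 79.5 with PRMT1 siRNA, 150.1 and 158 with p53 siRNA, and 179 and 147 in control. Its level with both siRNAs was 46.2% of control (log2 -1.11 ± 0.10 SE, adjusted p = 0.000298), and the difference from PRMT1 siRNA alone did not pass (adjusted p = 0.777).

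Trp53 (chromosome 11, 69580359 to 69591873, plus strand) was reduced less by the pair than by its own siRNA. It had 91.2 and 93.6 CPM with both siRNAs, 146 and 146 with PRMT1 siRNA, 57.2 and 55.9 with p53 siRNA, and 150.2 and 132 in control. The level was 65.4% of control with both siRNAs (log2 -0.61 ± 0.07, adjusted p = 0.000901) and 40.01% with p53 siRNA alone, and both siRNAs differed from p53 siRNA (log2 0.70, adjusted p = 0.000178). All values for the pair therefore come from cells in which more Trp53 mRNA remained than with p53 siRNA alone.

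**Figure D1:**
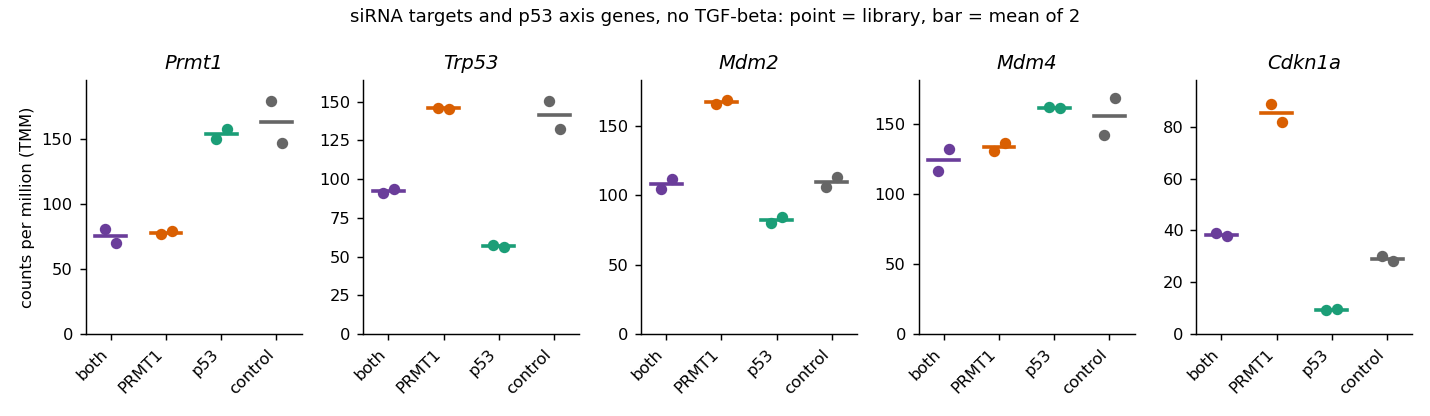
CPM (TMM-scaled, linear axis from 0) of Prmt1, Trp53, Mdm2, Mdm4 and Cdkn1a in each library without TGF-beta; points are libraries and bars the mean of 2. Mdm2 with both siRNAs lies at 105 and 112 CPM beside 106 and 113 CPM in control, between the p53 siRNA and PRMT1 siRNA libraries.

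Among the regulators of p53, Mdm2 (chromosome 10, 117688888 to 117710758, minus strand) was back at the control level. It had 105 and 112 CPM with both siRNAs, 166 and 169 with PRMT1 siRNA, 80.4 and 84.7 with p53 siRNA, and 106 and 113 in control. The difference of both siRNAs from control was -0.02 on the log2 scale (95% interval -0.16 to 0.12), and both siRNAs differed from PRMT1 siRNA (adjusted p = 0.00151; 15.8% of all genes were called in that comparison) and from p53 siRNA (adjusted p = 0.00225; 27.5% of all genes). Mdm4 (chromosome 1, 132959484 to 133030561, minus strand) had 116 and 132 CPM with both siRNAs, 131 and 137 with PRMT1 siRNA, 163 and 161 with p53 siRNA, and 142 and 169 in control. The groups did not overlap, as in 53.3% of all genes tested, and the gene just passed (log2 -0.33 ± 0.09, adjusted p = 0.0373), but not without control replicate 2 (adjusted p = 0.162), without replicate 1 of both siRNAs (0.198), without any 1 PRMT1 or p53 siRNA library (0.064 to 0.0704) or with the 16 libraries (0.495). Pml, a nuclear body protein that recruits p53, fell to 147 and 171 CPM with both siRNAs, against 216 and 236 CPM in control (log2 -0.51 ± 0.08, adjusted p = 0.00373). Over all genes tested, 7.35% fell and 6.74% rose with both siRNAs. Of 20 tested regulators, 3 fell and none rose; 5 fell without control replicate 1 and 1 with the 16 libraries.

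Cdkn1a, the cyclin-dependent kinase inhibitor p21 (chromosome 17, 29090979 to 29100722, plus strand), stayed above control but far below its level with PRMT1 siRNA. It had 38.9 and 37.8 CPM with both siRNAs, 88.7 and 82 with PRMT1 siRNA, 9.33 and 9.48 with p53 siRNA, and 30.1 and 28 in control, with no overlap between any of the 4 groups. Both siRNAs left it at 132% of control (log2 0.40 ± 0.07, adjusted p = 0.00651; 0.0502 without replicate 1 of both siRNAs), against 294% with PRMT1 siRNA and 32.4% with p53 siRNA. It is shown because its promoter was the 1 of 28 among the arrest and repair list with an exact p53 response element (a pair of decamers with at most 13 bases between them, either strand) in the 250 bases before to 50 after the start; 0.074% of 27025 RefSeq mouse promoters hold one. Capitals mark the decamers and the bases between them, read from chr17:29090866-29090977, plus strand (GRCm38.p6, RefSeq).
Cdkn1a: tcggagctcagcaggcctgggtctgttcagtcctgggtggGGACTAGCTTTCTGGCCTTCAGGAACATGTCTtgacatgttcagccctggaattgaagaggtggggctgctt

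PRMT1 siRNA against control called 3458 genes (23.2%), of which 1474 rose (9.91%) and 1984 fell (13.3%), and p53 siRNA against control called 1231 (8.28%), of which 619 rose (4.16%) and 612 fell (4.11%). These comparisons share the 2 control libraries with the pair, so their lists of called genes are not independent. Each called gene was given a class from its own values with both siRNAs. It was still changed if called with the same sign, opposite if called with the other sign, and back within 1.5-fold if it was not called, its 95% interval lay inside 1.5-fold of control and it differed from the single siRNA in the direction of a return. Of the PRMT1 siRNA changes, 1205 (34.8%) were still changed, 892 (25.8%) were back, 16 (0.463%) were opposite and 1345 (38.9%) could not be decided. Of the p53 siRNA changes, 267 (21.7%) were still changed, 611 (49.6%) were back, 129 (10.5%) were opposite and 224 (18.2%) could not be decided. Class counts within the gene lists below are to be read beside these shares.

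**Figure D2:**
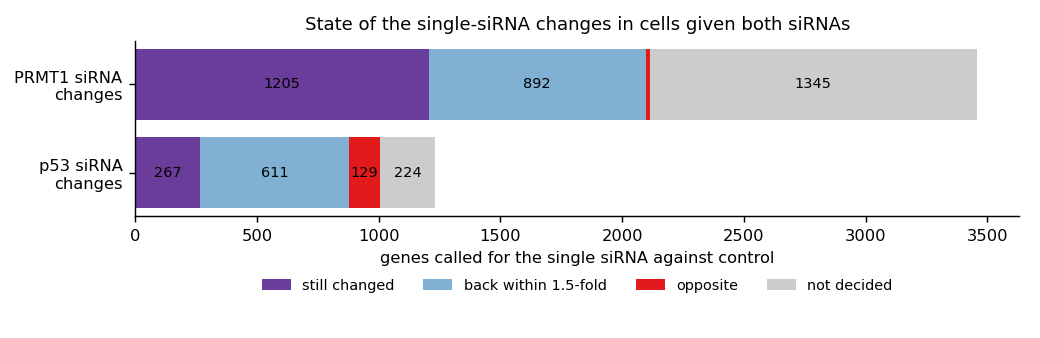
Number of genes called for PRMT1 siRNA (upper bar) and p53 siRNA (lower bar) against control, split by their state in cells with both siRNAs. The back class is the larger one for p53 siRNA (611 of 1231), and the still changed class exceeds it for PRMT1 siRNA (1205 against 892 genes), though not without control replicate 2 (843 against 1571).

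The sizes below describe the classes and test nothing, since the values with both siRNAs define the classes. For PRMT1 siRNA, the median size of the single change was 0.49 on the log2 scale in the still changed class, where it was 0.43 with both siRNAs, and 0.39 in the back class, where it was 0.08 with both siRNAs. Of the still changed genes 183 had moved by 2-fold or more with PRMT1 siRNA, and of the genes back 16 had, and of those not decided 143 had. For p53 siRNA, the single change had a median of 0.46 in the still changed class and 0.39 in the back class. In both back classes the median single change was itself inside 1.5-fold. For such genes the margin shows little, and the class rests on the test against the single siRNA. That test reuses the single siRNA libraries that made the gene called, so their spread enters both the call and the return. The class counts moved with the libraries used: the back class for PRMT1 siRNA held between 31 genes (without PRMT1 siRNA replicate 1) and 1571 (without control replicate 2), and that for p53 siRNA between 70 (without p53 siRNA replicate 1) and 1035 (without control replicate 2). With length offsets, 539 of the 892 genes back for PRMT1 siRNA and 495 of the 611 for p53 siRNA stayed in that class. Seen from the pair, 980 of its 2096 changes were also called for PRMT1 siRNA and not for p53 siRNA, 155 for p53 siRNA and not for PRMT1 siRNA, 241 for both single siRNAs and 720 for neither.

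The p53 target genes of arrest and repair moved in either direction with both siRNAs. Of 33 tested, 6 rose and 3 fell with both siRNAs, with a median log2 change of -0.00086. The shares over all genes tested were 6.74% that rose and 7.35% that fell. Without replicate 1 of both siRNAs, 2 rose and 0 fell. PRMT1 siRNA had raised 19 and lowered 3 (median 0.40) and p53 siRNA had raised 1 and lowered 14 (median -0.32). With both siRNAs, 12 of the PRMT1 siRNA changes and 10 of the p53 siRNA changes were back within 1.5-fold, while 8 of the PRMT1 siRNA changes were still changed and 5 of the p53 siRNA changes were opposite; without PRMT1 siRNA replicate 1, 3 of the PRMT1 siRNA changes were back. Ccng1, a cyclin that p53 induces, had 279 and 267 CPM with both siRNAs, 404 and 399 with PRMT1 siRNA, 149 and 152 with p53 siRNA, and 240.1 and 260.1 in control, so that it was back from both sides (log2 0.13 ± 0.06, adjusted p = 0.198).

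Zmat3, an RNA-binding protein that p53 induces, had 65.8 and 71.1 CPM with both siRNAs, 106 and 101 with PRMT1 siRNA, 35 and 32.8 with p53 siRNA, and 53.5 and 55.2 in control. It stayed above control (log2 0.33 ± 0.066, adjusted p = 0.0113), though not with the 16 libraries (adjusted p = 0.113). Ei24, an autophagy protein first found as a p53 target, had 83.3 and 83.2 CPM with both siRNAs, 89.3 and 88.5 with PRMT1 siRNA, 64.6 and 65.2 with p53 siRNA, and 65.7 and 60.5 in control. It rose with both siRNAs (log2 0.40 ± 0.061, adjusted p = 0.00342) to about its PRMT1 siRNA level, while p53 siRNA alone left it near control.

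Of 15 tested p53 target genes of cell death, 4 rose and 1 fell with both siRNAs (median log2 0.11), where 6.74% of all genes tested rose and 7.35% fell. Pmaip1, the death protein NOXA, had 15.8 and 15.2 CPM with both siRNAs, 29.3 and 26.6 with PRMT1 siRNA, 7.41 and 6.1 with p53 siRNA, and 6.94 and 7.74 in control. It rose (log2 1.08 ± 0.11, adjusted p = 0.000655) and lay between its control and PRMT1 siRNA levels, with the p53 siRNA libraries near control. Fas, a death receptor, had 36 and 33.3 CPM with both siRNAs, 34.1 and 35.9 with PRMT1 siRNA, 18.4 and 18.4 with p53 siRNA, and 25.2 and 22.2 in control (log2 0.55 ± 0.081, adjusted p = 0.00312; 0.0516 with the 16 libraries). Dram1, a lysosomal protein that promotes autophagy, had 8.16 and 9.44 CPM with both siRNAs, 8.64 and 6.72 with PRMT1 siRNA, 5.81 and 5.9 with p53 siRNA, and 4 and 4.84 in control (log2 0.99 ± 0.16, adjusted p = 0.00463). Fas was lower in the p53 siRNA libraries than in control, and Dram1 was not.

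The genes of G2 and mitosis were lowered by p53 siRNA and lay near control with both siRNAs. Of 40 tested, 2 rose and 1 fell with both siRNAs (median log2 0.069), while p53 siRNA lowered 35 (median -0.37) and PRMT1 siRNA raised 18 (median 0.21). With both siRNAs 33 of the 35 were back within 1.5-fold and the other two, Nusap1 and Aurka, had risen above control. Neither rise passed without control replicate 2 (adjusted p = 0.0676 for Nusap1 and 0.183 for Aurka) or replicate 1 of both siRNAs (0.0946 and 0.175), and that of Aurka also did not pass without any 1 single-siRNA library or replicate 2 of both siRNAs (between 0.0709 and 0.0895). The count of genes back was 0 without p53 siRNA replicate 1, 15 without p53 siRNA replicate 2, 19 without control replicate 1 and 15 with the 16 libraries. Nek2, a centrosome kinase, had 55.3 and 56.8 CPM with both siRNAs, 65 and 57.3 with PRMT1 siRNA, 32.3 and 35.9 with p53 siRNA, and 49.8 and 48.8 in control. Kif4, a chromosome-bound kinesin, had 63.2 and 67.1 CPM with both siRNAs, 74.3 and 74.8 with PRMT1 siRNA, 43.7 and 46.8 with p53 siRNA, and 57.1 and 58.7 in control. In these genes the p53 siRNA libraries were the lowest of the 8, and the difference of both siRNAs from control did not pass the test (log2 0.19 ± 0.077, adjusted p = 0.134 for Nek2 and log2 0.17 ± 0.063, adjusted p = 0.0965 for Kif4). With length offsets Kif4 was called higher than control (adjusted p = 0.0112), and 5 genes of the list rose.

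Promoters of mitotic genes are known for CCAAT boxes and for the cell cycle element CHR, and p53 is known to lower such genes by way of p21. Here p53 siRNA lowered both Cdkn1a, the gene of p21, and 35 of the 40 mitotic genes. PRMT1 siRNA raised both Cdkn1a and 18 of the 40. A part of p21 in these changes was not tested. CCAAT or its complement stood in 81.2% of 32 promoters of the list and in 41.1% of all 27025, and the CHR letters TTTGAA or their complement in 71.9% of the list and 20.2% of all. CCAAT also stood in 85.7% of 21 promoters of the cholesterol synthesis list and 60.7% of 28 of the arrest and repair list. The stretches around the CCAAT letters of Nek2 (chr1:191821407-191821472, plus strand) and Kif4 (chrX:100625873-100626064, plus strand) are shown because both genes met the rule for a return from p53 siRNA, with the letters on either strand in capitals (GRCm38.p6, RefSeq).
Nek2: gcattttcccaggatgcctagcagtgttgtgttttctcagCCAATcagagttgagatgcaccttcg
Kif4: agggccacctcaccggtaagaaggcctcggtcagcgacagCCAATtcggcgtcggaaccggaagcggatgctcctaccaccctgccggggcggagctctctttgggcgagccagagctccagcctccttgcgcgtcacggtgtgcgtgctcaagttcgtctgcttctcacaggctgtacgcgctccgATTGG

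Of 40 tested S phase genes, 6 rose and 0 fell with both siRNAs (median log2 0.064), and the number that rose was between 1 and 6 when any 1 library was left out, lowest without replicate 1 of both siRNAs. Prim1, the small subunit of DNA primase, had 54.1 and 53.7 CPM with both siRNAs, 53.9 and 54.5 with PRMT1 siRNA, 39.3 and 41.6 with p53 siRNA, and 41.9 and 39.9 in control (log2 0.40 ± 0.061, adjusted p = 0.00359). Of 34 genes of ribosome biogenesis and MYC, 2 rose and 2 fell with both siRNAs. Over all genes called for PRMT1 siRNA 25.8% were back. PRMT1 siRNA had raised 18 and lowered 1, and 11 of these were back, a number between 1 and 11 when any 1 library was left out, lowest without PRMT1 siRNA replicate 1. Myc, a regulator of growth, had 42.4 and 39.4 CPM with both siRNAs, 53.5 and 49.1 with PRMT1 siRNA, 20.5 and 19.96 with p53 siRNA, and 31.2 and 27.5 in control. The 4 groups stood in the same order as for Cdkn1a, and Myc rose (log2 0.48 ± 0.082, adjusted p = 0.00574; 0.0798 with the 16 libraries). Of 24 cyclins and CDK inhibitors, 2 rose and 2 fell, where 6.74% of all genes tested rose and 7.35% fell. Ccnd1, the G1 cyclin D1, was lower than control in every siRNA group, with 104 and 109 CPM with both siRNAs, 127 and 124 with PRMT1 siRNA, 86.2 and 87 with p53 siRNA, and 157 and 154 in control (log2 -0.55 ± 0.056, adjusted p = 0.000613).

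The interferon-stimulated genes, antiviral and immune genes that interferons induce, had a smaller median fall with both siRNAs than with PRMT1 siRNA. With both siRNAs 27 of 46 fell and 2 rose (median log2 -0.33), beside 45 that fell with PRMT1 siRNA alone (median -0.77) and 8 that rose and 1 that fell with p53 siRNA (median 0.17). Of the PRMT1 siRNA changes 27 were still changed and 14 were back within 1.5-fold. Over all genes called for PRMT1 siRNA, 34.8% were still changed and 25.8% were back. The number that fell was between 20 and 27 when any 1 library was left out and 12 with the 16 libraries. The number back was 2 without PRMT1 siRNA replicate 1, 8 without replicate 1 of both siRNAs, 9 with length offsets and 1 with the 16 libraries.

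The response element of these promoters, searched as GAAA, any 2 bases and GAAA on both strands, stood in 60.6% of 33 promoters of the list, in 65% of the 20 whose genes fell with both siRNAs, and in 3.99% of all 27025. Stretches around it are shown for 3 members that stayed low, with the match in capitals: Rsad2 (chr12:26456523-26456612, minus strand), where it reads as the complement, Irgm1 (chr11:48871421-48871490, minus strand), where 2 matches overlap, and Irgm2 (chr11:58214873-58214962, plus strand), all GRCm38.p6 from RefSeq.
Rsad2: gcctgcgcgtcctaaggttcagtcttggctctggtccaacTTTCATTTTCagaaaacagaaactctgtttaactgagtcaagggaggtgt
Irgm1: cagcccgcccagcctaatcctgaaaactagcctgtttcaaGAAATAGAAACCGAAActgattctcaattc
Irgm2: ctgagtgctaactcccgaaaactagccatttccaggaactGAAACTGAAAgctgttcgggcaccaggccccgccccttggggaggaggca

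Rsad2, the antiviral enzyme viperin, had 279 and 238 CPM with both siRNAs, 155 and 193 with PRMT1 siRNA, 533 and 592 with p53 siRNA, and 469.7 and 527 in control (log2 -0.95 ± 0.12, adjusted p = 0.00133). Ifit2, an interferon-induced RNA-binding protein, had 149 and 132 CPM with both siRNAs, 109 and 116 with PRMT1 siRNA, 554 and 544 with p53 siRNA, and 281 and 335 in control (log2 -1.13 ± 0.092, adjusted p = 0.000269). In both genes the libraries of both siRNAs lay between those of PRMT1 siRNA and control, and the difference from PRMT1 siRNA alone was called (adjusted p = 0.0149 for Rsad2 and 0.0409 for Ifit2). Irgm1, an immunity-related GTPase, had 379.5 and 359 CPM with both siRNAs, 277 and 323 with PRMT1 siRNA, 597 and 622 with p53 siRNA, and 612 and 616 in control (log2 -0.73 ± 0.079, adjusted p = 0.000745). Irgm2, its relative, had 255 and 252 CPM with both siRNAs, 213 and 228 with PRMT1 siRNA, 408 and 411 with p53 siRNA, and 359 and 385 in control (log2 -0.55 ± 0.064, adjusted p = 0.00106). Their order was the same, although for Irgm2 the difference from PRMT1 siRNA did not pass (adjusted p = 0.0565), and Irgm2 overlaps Igtp on the same strand, so that reads may be shared. Parp9, which modifies proteins with ADP-ribose, and the nucleotide kinase Cmpk2 also fell (log2 -0.62 ± 0.065, adjusted p = 0.000655 and log2 -0.83 ± 0.10, adjusted p = 0.00154).

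Large falls outside that list included immune genes. Cxcl9, a T cell chemokine induced by interferon, had 3.38 and 3.49 CPM with both siRNAs, 1.73 and 2.68 with PRMT1 siRNA, 16.3 and 15.4 with p53 siRNA, and 11.7 and 13.9 in control (log2 -1.90 ± 0.16, adjusted p = 0.000284). Cxcl10, its relative, had 583 and 480.2 CPM with both siRNAs and 989 and 981 CPM in control (log2 -0.89 ± 0.12, adjusted p = 0.00216). Ifit1bl1, a relative of Ifit1, had 11.3 and 10.7 CPM with both siRNAs, 7.03 and 8.54 with PRMT1 siRNA, 55.4 and 58.5 with p53 siRNA, and 34.5 and 32.6 in control (log2 -1.61 ± 0.092, adjusted p = 3.14e-05). In none of these did the libraries of both siRNAs reach control. Mpeg1, a pore-forming protein known from macrophages, had 7.66 and 7.94 CPM with both siRNAs and 21.7 and 25 CPM in control (log2 -1.58 ± 0.14, adjusted p = 0.000298). Il18bp, which neutralises interleukin 18, had 6.24 and 4.99 CPM with both siRNAs and 12.6 and 13.7 CPM in control (log2 -1.22 ± 0.14, adjusted p = 0.00106). Ly6c1, a surface antigen, had 19.5 and 15.9 CPM with both siRNAs and 39.6 and 42.7 CPM in control (log2 -1.21 ± 0.10, adjusted p = 0.000284). Members of the Ifit, Ly6, Irgm and H2 families have close copies among which the counting may have split reads.

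Among the large PRMT1 siRNA changes that were back were also immune genes. Ly6a, a surface antigen also called Sca-1, had 35.8 and 28.2 CPM with both siRNAs, 11.8 and 13 with PRMT1 siRNA, 42.2 and 33.2 with p53 siRNA, and 33.1 and 31.6 in control (log2 -0.0086 ± 0.13, adjusted p = 0.973; against PRMT1 siRNA adjusted p = 0.00151). Ly6e, of the same family, had 547 and 454 CPM with both siRNAs, 213 and 244 with PRMT1 siRNA, 795 and 732 with p53 siRNA, and 586 and 576 in control (log2 -0.21 ± 0.098, adjusted p = 0.169). Ifi44l, an interferon-induced gene, had 10.3 and 8.07 CPM with both siRNAs, 3.37 and 3.95 with PRMT1 siRNA, 24 and 21.7 with p53 siRNA, and 9.66 and 12.1 in control (log2 -0.23 ± 0.15, adjusted p = 0.323). All 3 met the rule for a return, but with length offsets Ly6e was called lower (log2 -0.25, adjusted p = 0.0371) and Ifi44l could not be decided.

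The genes of MHC class I antigen presentation split. Of 24 tested, 8 rose and 3 fell with both siRNAs (median log2 -0.03), where PRMT1 siRNA had lowered 16. The number that rose was 3 and that fell 5 without replicate 1 of both siRNAs; 6 fell with length offsets; 5 rose without control replicate 1 and 2 with the 16 libraries. Psmb8, a subunit of the immunoproteasome, had 91.9 and 75.8 CPM with both siRNAs, 45.3 and 48.1 with PRMT1 siRNA, 71.3 and 66.1 with p53 siRNA, and 50.1 and 52.1 in control (log2 0.72 ± 0.091, adjusted p = 0.00158; 0.0984 with the 16 libraries). H2-Q4, a class I heavy chain, had 212 and 184 CPM with both siRNAs, 114 and 128 with PRMT1 siRNA, 189 and 169 with p53 siRNA, and 130.2 and 134 in control (log2 0.58 ± 0.089, adjusted p = 0.00353). Tapbp, the loading chaperone tapasin, had 533 and 489 CPM with both siRNAs, 315 and 338 with PRMT1 siRNA, 875 and 833 with p53 siRNA, and 671 and 668 in control (log2 -0.39 ± 0.072, adjusted p = 0.00819; 0.148 with the 16 libraries). Psmb8 and H2-Q4 thus lay above all control libraries, and Tapbp between PRMT1 siRNA and control.

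The genes of cholesterol synthesis stayed down. Of 30 tested, 25 fell and none rose with both siRNAs (median log2 -0.43), 23 fell and none rose with PRMT1 siRNA (median -0.43), and 5 rose and none fell with p53 siRNA (median 0.15). Of the PRMT1 siRNA changes 20 were still changed and none met the rule for a return. The number that fell with both siRNAs was between 18 and 23 when any 1 library was left out, 15 in a fit of the 4 libraries alone and 12 with the 16 libraries. Cyp51, a demethylase of the pathway, had 55.2 and 51 CPM with both siRNAs, 54.6 and 55.7 with PRMT1 siRNA, 103 and 108 with p53 siRNA, and 107 and 105 in control (log2 -1.0 ± 0.063, adjusted p = 5.13e-05). Srebf2, the transcription factor that drives the pathway, had 99.4 and 107 CPM with both siRNAs, 99.99 and 95.2 with PRMT1 siRNA, 179 and 171 with p53 siRNA, and 156 and 157 in control (log2 -0.60 ± 0.063, adjusted p = 0.000655). For Cyp51 and Srebf2 the levels with both siRNAs overlapped those with PRMT1 siRNA. The enzymes Sqle (log2 -0.81 ± 0.077, adjusted p = 0.000463) and Hmgcs1 (log2 -0.58 ± 0.062, adjusted p = 0.000722) fell as well.

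**Figure D3:**
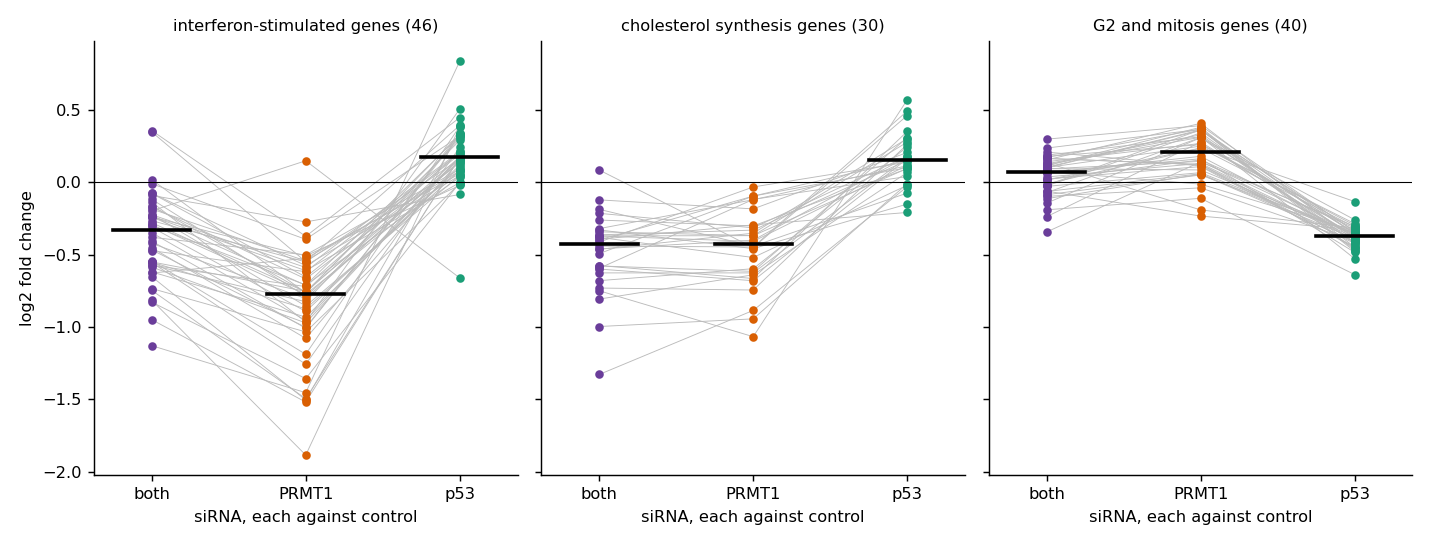
Log2 fold change of each tested member (points) of 3 gene lists for both siRNAs, PRMT1 siRNA and p53 siRNA, each against the same 2 control libraries; black bars are medians. The median with both siRNAs is -0.33 for the interferon-stimulated genes (PRMT1 siRNA -0.77), -0.43 for the cholesterol genes (PRMT1 siRNA -0.43) and 0.069 for the G2 and mitosis genes (p53 siRNA -0.37).

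Genes of amino acid supply and the unfolded protein response were lower in part. With both siRNAs 11 of 39 fell and 2 rose (median log2 -0.12), and 7 of the 10 that p53 siRNA had lowered were still changed. Of all genes called for p53 siRNA, 21.7% were still changed. The number that fell was 7 without replicate 2 of both siRNAs and 4 with the 16 libraries. Slc7a5, a transporter of large neutral amino acids, had 112 and 112 CPM with both siRNAs, 147 and 135 with PRMT1 siRNA, 119.97 and 127 with p53 siRNA, and 181 and 181 in control (log2 -0.69 ± 0.063, adjusted p = 0.000375). Asns, asparagine synthetase, had 123 and 113 CPM with both siRNAs, 133 and 127 with PRMT1 siRNA, 115 and 123 with p53 siRNA, and 182 and 166 in control (log2 -0.56 ± 0.072, adjusted p = 0.0017). Each siRNA group lay below control in both genes. Psat1, of serine synthesis, and Mthfd2, of mitochondrial folate metabolism, fell too (log2 -0.50 ± 0.058, adjusted p = 0.00106 and log2 -0.52 ± 0.078, adjusted p = 0.00321).

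Among fibroblast and collagen matrix genes 15 of 34 fell and 4 rose with both siRNAs (median log2 -0.22), beside 18 that fell and 3 that rose with PRMT1 siRNA, of which 15 were still changed. The share still changed over all genes called for PRMT1 siRNA was 34.8%. Postn, the matrix protein periostin, had 16 and 18.1 CPM with both siRNAs, 8.52 and 9.78 with PRMT1 siRNA, 62.3 and 58.3 with p53 siRNA, and 34 and 35.1 in control (log2 -1.03 ± 0.088, adjusted p = 0.000284). Ogn, a small proteoglycan, had 84.8 and 83.4 CPM with both siRNAs, 81.8 and 83.9 with PRMT1 siRNA, 132 and 129.6 with p53 siRNA, and 137 and 138 in control (log2 -0.71 ± 0.055, adjusted p = 0.000216). Ogn stood at its PRMT1 siRNA level and Postn between that and control. Fbln5, needed for elastic fibres, and the fibrillar collagen Col11a1 fell (log2 -0.59 ± 0.06, adjusted p = 0.000613 and log2 -0.76 ± 0.08, adjusted p = 0.000655). Lum, a collagen-binding proteoglycan, was back from both sides: it had 14.8 and 13.7 CPM with both siRNAs, 6.35 and 6.12 with PRMT1 siRNA, 56.5 and 46.7 with p53 siRNA, and 15.7 and 14.5 in control (log2 -0.079 ± 0.11, adjusted p = 0.665). Angptl7, a secreted glycoprotein, had 26.8 and 29.3 CPM with both siRNAs, 7.91 and 10.2 with PRMT1 siRNA, 82.4 and 71.3 with p53 siRNA, and 34.5 and 33.3 in control (log2 -0.28 ± 0.11, adjusted p = 0.107). It met the same rule but was called lower with length offsets (log2 -0.32, adjusted p = 0.0456).

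Basement membrane genes were among those that rose. Lama4, a laminin chain, had 9.06 and 10.8 CPM with both siRNAs, 9.88 and 10.3 with PRMT1 siRNA, 4.92 and 4.17 with p53 siRNA, and 2.02 and 2.25 in control (log2 2.21 ± 0.16, adjusted p = 0.000133). Col18a1, a basement membrane collagen, had 15.9 and 16.5 CPM with both siRNAs, 11.4 and 12.9 with PRMT1 siRNA, 12.8 and 11.7 with p53 siRNA, and 6.58 and 6.79 in control (log2 1.28 ± 0.10, adjusted p = 0.000269). Each siRNA alone had also raised both genes. Angptl7 lies within Mtor on the other strand, and Col18a1 overlaps Slc19a1, Ogn overlaps Cenpp, Parp9 overlaps Dtx3l and Slc7a5 (mean of 139 CPM over the 8 libraries) overlaps Gm20388 (99.2 CPM) on the other strand; the strand setting of the counting is not given in the sources used here, so reads of such pairs cannot be told apart.

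Of the mesenchymal genes 5 of 31 fell and 2 rose (median log2 -0.061), with 8 that fell without control replicate 1 and 1 with the 16 libraries. With length offsets 6 rose. In the main fit 6.74% of all genes tested rose and 7.35% fell. Loxl2, a lysyl oxidase, had 204 and 232 CPM with both siRNAs, 258 and 255 with PRMT1 siRNA, 274 and 276 with p53 siRNA, and 307 and 321 in control (log2 -0.53 ± 0.071, adjusted p = 0.00198). Thbs1, a thrombospondin, fell (log2 -0.56 ± 0.073, adjusted p = 0.00174; 0.112 with the 16 libraries). Snai1 and Snai2, repressors of epithelial genes, did not pass: Snai1 had 17.1 and 17.9 CPM with both siRNAs and 17.6 and 15.4 CPM in control (log2 0.078 ± 0.095, adjusted p = 0.613), and Snai2 had 25.3 and 25.6 CPM with both siRNAs and 23.9 and 21.3 CPM in control (log2 0.17 ± 0.085, adjusted p = 0.198).

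Of the smooth muscle genes 6 of 22 fell and 3 rose (median log2 -0.094), where 7.35% of all genes tested fell and 6.74% rose. Without replicate 1 of both siRNAs 1 fell and 1 rose, and without control replicate 2 1 rose. Acta2, smooth muscle actin, had 264 and 254 CPM with both siRNAs, 351 and 341 with PRMT1 siRNA, 201.3 and 280.2 with p53 siRNA, and 443 and 368 in control (log2 -0.64 ± 0.14, adjusted p = 0.0139; 0.0592 without replicate 1 of both siRNAs and 0.086 with the 16 libraries). Tagln, the actin-binding protein transgelin, had 89.5 and 84.8 CPM with both siRNAs, 109.7 and 109.7 with PRMT1 siRNA, 55.5 and 75.5 with p53 siRNA, and 127 and 111 in control (log2 -0.45 ± 0.12, adjusted p = 0.0349), and did not pass without control replicate 1 (0.105), either PRMT1 siRNA library (0.0608 and 0.0604) or either replicate of both siRNAs (0.0988 and 0.0972). Csrp2, a LIM protein, moved the other way, with 39.3 and 38.6 CPM with both siRNAs, 22.2 and 24.4 with PRMT1 siRNA, 35.5 and 29.1 with p53 siRNA, and 19.2 and 16.5 in control (log2 1.12 ± 0.11, adjusted p = 0.000466). Csrp2 was higher with each siRNA alone, while Acta2 was lower with p53 siRNA and did not pass with PRMT1 siRNA.

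Epicardial genes too included both rises and falls, where 6.74% of all genes tested rose and 7.35% fell. Of 27 tested, 5 rose and 2 fell with both siRNAs (median log2 -0.004), beside 4 that rose and 13 that fell with PRMT1 siRNA (median -0.30), of which 10 were back and 4 still changed. The shares over all genes called for PRMT1 siRNA were 25.8% back and 34.8% still changed. Without replicate 1 of both siRNAs 2 rose, and with length offsets 6 fell. The number back was 1 without PRMT1 siRNA replicate 1, 3 without PRMT1 siRNA replicate 2, 3 without replicate 1 of both siRNAs and 5 with length offsets. Wt1 had 320.3 and 329 CPM with both siRNAs, 261 and 281 with PRMT1 siRNA, 319 and 297 with p53 siRNA, and 257 and 266 in control (log2 0.31 ± 0.066, adjusted p = 0.0141; 0.051 without replicate 1 of both siRNAs and 0.0852 with the 16 libraries). Tbx18, a transcription factor of the epicardium, had 20.5 and 20.5 CPM with both siRNAs, 26.8 and 24.8 with PRMT1 siRNA, 17 and 16.1 with p53 siRNA, and 18.4 and 18.5 in control (log2 0.16 ± 0.077, adjusted p = 0.196), and was back from its rise with PRMT1 siRNA. Sema3d, a guidance cue, had 42.9 and 43.1 CPM with both siRNAs, 62.1 and 63.8 with PRMT1 siRNA, 85.5 and 91.2 with p53 siRNA, and 75.8 and 90.4 in control (log2 -0.95 ± 0.084, adjusted p = 0.000292). It fell further than with PRMT1 siRNA alone (adjusted p of the difference = 0.00574). Lrrn4, a mesothelial surface protein, fell (log2 -0.59 ± 0.082, adjusted p = 0.00212).

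Tnnt2, cardiac troponin T, had the largest fall among the named genes, with 4.81 and 3.67 CPM with both siRNAs, 2.01 and 2.55 with PRMT1 siRNA, 24.5 and 23.4 with p53 siRNA, and 20.6 and 18.7 in control (log2 -2.19 ± 0.13, adjusted p = 4.42e-05). It was the 1 of 3 tested cardiomyocyte markers that changed. Of 19 junction and keratin genes 4 fell and 1 rose, with 1 that fell without replicate 1 of both siRNAs and 2 without either p53 siRNA library. Over all genes tested 7.35% fell and 6.74% rose. Jup, plakoglobin, had 79.98 and 87.6 CPM with both siRNAs and 117 and 117 CPM in control (log2 -0.49 ± 0.068, adjusted p = 0.00242). Krt14, a basal keratin, had 103 and 99.3 CPM with both siRNAs and 66.7 and 59.7 CPM in control (log2 0.68 ± 0.067, adjusted p = 0.000559). Of 4 tested endothelial markers 2 rose, the growth factor receptors Kdr (log2 1.16 ± 0.18, adjusted p = 0.00343) and Flt1 (log2 0.71 ± 0.14, adjusted p = 0.00991).

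Among the largest rises, Rbp4, the retinol carrier, had 9.72 and 9.66 CPM with both siRNAs, 7.07 and 7.65 with PRMT1 siRNA, 1.78 and 1.9 with p53 siRNA, and 2.53 and 1.45 in control (log2 2.27 ± 0.20, adjusted p = 0.000287). Saa3, an acute phase protein, had 386 and 328 CPM with both siRNAs, 269 and 296 with PRMT1 siRNA, 104 and 84.5 with p53 siRNA, and 101 and 80.3 in control (log2 1.98 ± 0.13, adjusted p = 8.18e-05). Neat1, the long noncoding RNA that builds paraspeckles, had 464 and 495 CPM with both siRNAs, 363 and 407 with PRMT1 siRNA, 177 and 161 with p53 siRNA, and 159 and 173 in control (log2 1.53 ± 0.083, adjusted p = 2.33e-05). In all 3 the p53 siRNA libraries lay near control and those of both siRNAs above those of PRMT1 siRNA, a difference that was called for Neat1 (adjusted p = 0.0292) and did not pass for Saa3 (0.091) or Rbp4 (0.115). Syt7, a calcium sensor of membrane fusion, had 11.8 and 11.9 CPM with both siRNAs and 4.65 and 4.04 CPM in control (log2 1.44 ± 0.11, adjusted p = 0.000216). Enpp2, autotaxin, had 8.56 and 8.94 CPM with both siRNAs, 4.5 and 5.4 with PRMT1 siRNA, 5.16 and 2.8 with p53 siRNA, and 3.5 and 2.9 in control (log2 1.45 ± 0.24, adjusted p = 0.00467). The transcription factor Ebf4 (log2 1.42 ± 0.13, adjusted p = 0.000385) and the growth factor Fgf9 (log2 1.41 ± 0.19, adjusted p = 0.0018) rose as well.

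Of 14 tested complement and acute phase genes 8 rose and none fell (median log2 0.38), 4 without replicate 1 of both siRNAs, 5 without control replicate 1 and 3 with the 16 libraries. C3, the central complement protein, had 752 and 905 CPM with both siRNAs, 646 and 698 with PRMT1 siRNA, 666 and 594 with p53 siRNA, and 484 and 505 in control (log2 0.75 ± 0.098, adjusted p = 0.00181). C1s1, a protease of the first complement component, had 556 and 563 CPM with both siRNAs, 389 and 427 with PRMT1 siRNA, 649 and 606 with p53 siRNA, and 388 and 392 in control (log2 0.52 ± 0.069, adjusted p = 0.00193). All libraries of both siRNAs lay above control in both genes. Among chemokines and cytokines 6 of 25 rose and 3 fell, with 7 that fell with length offsets and 3 that rose with the 16 libraries. Ptgs2, cyclooxygenase 2, had 58.6 and 60.5 CPM with both siRNAs, 91.1 and 91.6 with PRMT1 siRNA, 16.4 and 15.8 with p53 siRNA, and 25.2 and 26.9 in control (log2 1.19 ± 0.063, adjusted p = 2.33e-05). Cxcl5, which attracts neutrophils, had 602 and 538 CPM with both siRNAs, 598 and 626 with PRMT1 siRNA, 271 and 268 with p53 siRNA, and 328 and 305 in control (log2 0.85 ± 0.074, adjusted p = 0.000291). Ptgs2 lay between control and PRMT1 siRNA, and Cxcl5 at about its PRMT1 siRNA level. Cxcl1, of the same kind, rose (log2 0.51 ± 0.083, adjusted p = 0.00457).

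Of 29 tested immediate early genes 8 rose and none fell (median log2 0.30), 4 without replicate 1 of both siRNAs. Fosl1, a subunit of the AP-1 factor, had 8.99 and 10.03 CPM with both siRNAs, 12.6 and 10.9 with PRMT1 siRNA, 3.52 and 3.38 with p53 siRNA, and 4.74 and 4.69 in control (log2 1.01 ± 0.13, adjusted p = 0.00154). Jun, its partner, had 41.6 and 45.1 CPM with both siRNAs, 51.1 and 49.2 with PRMT1 siRNA, 25.7 and 23.9 with p53 siRNA, and 31.2 and 30.2 in control (log2 0.50 ± 0.07, adjusted p = 0.00246). In both genes the p53 siRNA libraries were the lowest and the PRMT1 siRNA libraries the highest. Of 35 TGF-beta target and feedback genes, in cells given no TGF-beta, 11 rose and 5 fell (median log2 0.064). When any 1 library was left out between 5 and 8 rose and between 0 and 5 fell, the fewest without replicate 1 of both siRNAs. Id2 and Id3, inhibitors of helix-loop-helix factors, rose (log2 0.74 ± 0.099, adjusted p = 0.00197 and log2 0.75 ± 0.11, adjusted p = 0.00258), as did Cyr61, a matricellular protein (log2 0.57 ± 0.071, adjusted p = 0.0015).

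Of 32 hypoxia and glycolysis genes 10 rose and 1 fell with both siRNAs (median log2 0.16), 9 rose and none fell with p53 siRNA, and none rose and 2 fell with PRMT1 siRNA. With both siRNAs 5 rose without replicate 1 of both siRNAs and 5 without control replicate 2. Slc16a3, a lactate exporter, had 17.6 and 19.7 CPM with both siRNAs, 12.8 and 12.4 with PRMT1 siRNA, 21.1 and 17.7 with p53 siRNA, and 12.1 and 9.68 in control (log2 0.77 ± 0.13, adjusted p = 0.00469). Its p53 siRNA libraries stood at the level of both siRNAs, and its PRMT1 siRNA libraries did not pass against control.

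**Figure D4:**
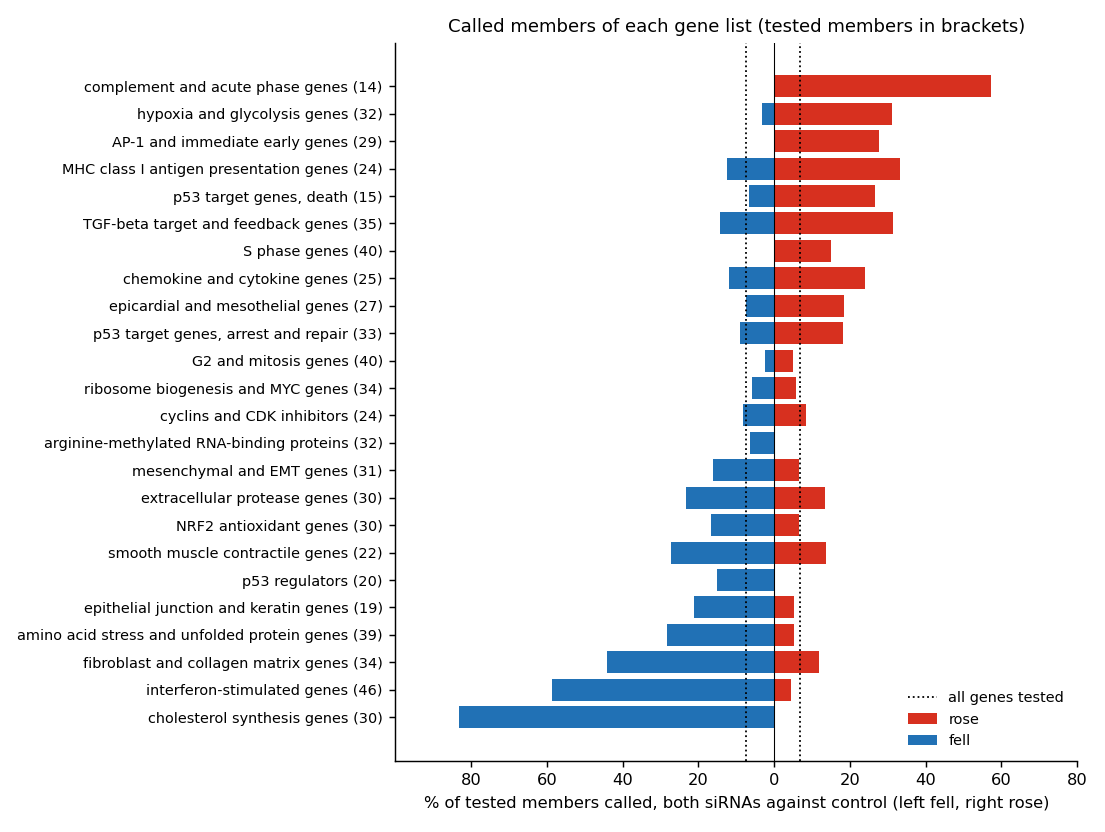
Share of the tested members of each gene list with 10 or more tested genes called higher or lower with both siRNAs against control; dotted lines mark the shares over all genes tested, 6.74% higher and 7.35% lower. The cholesterol synthesis list has 25 of 30 members lower, and the complement list 8 of 14 higher.

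Of 30 NRF2 antioxidant genes 2 rose and 5 fell (14 with length offsets, and 2 without replicate 1 of both siRNAs). Sod2, the mitochondrial superoxide dismutase, had 104 and 97.1 CPM with both siRNAs and 61.1 and 59.2 CPM in control (log2 0.74 ± 0.062, adjusted p = 0.000284). Of 30 extracellular protease genes 4 rose and 7 fell, and between 0 and 7 fell when any 1 library was left out. Mmp3, the matrix protease stromelysin 1, had 13.9 and 11.8 CPM with both siRNAs and 6.99 and 7.19 CPM in control (log2 0.86 ± 0.13, adjusted p = 0.00304). Of 32 genes of arginine-methylated RNA-binding proteins 2 fell and none rose, beside 7.35% of all genes tested that fell and 6.74% that rose. Prmt1 was the 1 of 9 tested arginine methyltransferases that changed. Without any 1 single-siRNA library, control replicate 2 or replicate 1 of both siRNAs, 0 of the RNA-binding genes fell, while 4 of them and 2 methyltransferases fell without control replicate 1. With length offsets 6 RNA-binding genes and 4 methyltransferases fell. Of 6 tested neural markers 4 fell, 0 without control replicate 2, and neither of the 2 tested haematopoietic markers passed.

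Among the large p53 siRNA changes that stayed, Adam23, a member of the ADAM family, had 54.8 and 59.5 CPM with both siRNAs, 77.5 and 75.1 with PRMT1 siRNA, 52.6 and 62.7 with p53 siRNA, and 123 and 125 in control (log2 -1.12 ± 0.083, adjusted p = 0.000163). Emb, the glycoprotein embigin, had 7.56 and 6.03 CPM with both siRNAs, 5.14 and 4.97 with PRMT1 siRNA, 7.5 and 7.05 with p53 siRNA, and 3.13 and 3.39 in control (log2 1.07 ± 0.15, adjusted p = 0.00255). Spp1, the matrix cytokine osteopontin, had 8.66 and 8.66 CPM with both siRNAs, 7.15 and 8.93 with PRMT1 siRNA, 5.25 and 6.23 with p53 siRNA, and 13.8 and 13.8 in control (log2 -0.67 ± 0.12, adjusted p = 0.00802; 0.0633 with the 16 libraries). In these genes PRMT1 siRNA had moved the level the same way. Mgp, matrix Gla protein, which restrains calcification, had 10.4 and 8.71 CPM with both siRNAs, 2.37 and 2.68 with PRMT1 siRNA, 22 and 17.1 with p53 siRNA, and 6.21 and 5.94 in control (log2 0.66 ± 0.16, adjusted p = 0.021; 0.145 without replicate 1 of both siRNAs, 0.0777 without control replicate 2 and 0.174 with the 16 libraries), and was lower than control with PRMT1 siRNA alone.

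Of all p53 siRNA changes that were back, 280 were rises and 331 falls. Those of at least 5 CPM and the largest size are described here and, for Lum and Angptl7, above. Adamtsl1, a matrix protein related to the ADAMTS proteases, had 11.5 and 12.9 CPM with both siRNAs, 7.15 and 9.99 with PRMT1 siRNA, 26.4 and 24.5 with p53 siRNA, and 9.89 and 11.9 in control (log2 0.16 ± 0.15, adjusted p = 0.503). Dnajc6, the clathrin uncoating factor auxilin, had 4.91 and 3.95 CPM with both siRNAs, 2.85 and 3.27 with PRMT1 siRNA, 13.8 and 11.1 with p53 siRNA, and 4.09 and 5.59 in control (log2 -0.11 ± 0.20, adjusted p = 0.738). Tmem8 had 10.3 and 8.57 CPM with both siRNAs, 6.03 and 5.82 with PRMT1 siRNA, 20.1 and 18 with p53 siRNA, and 7.86 and 9.23 in control (log2 0.15 ± 0.13, adjusted p = 0.454). Kcnk2, a potassium channel, was a fall, with 6.57 and 6.8 CPM with both siRNAs, 6.75 and 7.27 with PRMT1 siRNA, 3 and 3.55 with p53 siRNA, and 7.5 and 7.14 in control (log2 -0.13 ± 0.12, adjusted p = 0.501). Scrg1, back from its fall with PRMT1 siRNA, had 8.13 and 6.08 CPM with both siRNAs, 3.29 and 3.06 with PRMT1 siRNA, 13.4 and 11.3 with p53 siRNA, and 8 and 7.24 in control (log2 -0.089 ± 0.16, adjusted p = 0.738).

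Some genes changed with both siRNAs and passed with neither alone. Sept4, a septin, had 22.9 and 20.7 CPM with both siRNAs, 11.9 and 13.8 with PRMT1 siRNA, 13.6 and 11.8 with p53 siRNA, and 13 and 11.3 in control (log2 0.84 ± 0.12, adjusted p = 0.00212). Kcnj8, a subunit of ATP-sensitive potassium channels, had 10.1 and 10.5 CPM with both siRNAs, 4.82 and 6.89 with PRMT1 siRNA, 5.72 and 6.23 with p53 siRNA, and 4.97 and 4.14 in control (log2 1.18 ± 0.17, adjusted p = 0.00273). Pik3r3, a regulatory subunit of PI3 kinase, had 15.4 and 16.5 CPM with both siRNAs, 23.8 and 23.9 with PRMT1 siRNA, 26.3 and 26.6 with p53 siRNA, and 24.2 and 26.7 in control (log2 -0.68 ± 0.079, adjusted p = 0.00106). Sp140, a chromatin reader, Slc9a3r2, a scaffold of membrane proteins, and Elovl6, a fatty acid elongase, were of the same class (log2 0.76 ± 0.091, adjusted p = 0.0012, log2 0.53 ± 0.07, adjusted p = 0.00192 and log2 -0.60 ± 0.083, adjusted p = 0.00226), the last 2 not past the threshold with the 16 libraries (0.17 and 0.0642). For Sept4, Kcnj8 and Pik3r3, both siRNAs also differed from PRMT1 siRNA (adjusted p = 0.00487, 0.0133 and 0.0036) and from p53 siRNA (0.00119, 0.00696 and 0.000263). The test of whether the change with both siRNAs differs from the sum of the single log2 changes called 108 genes (0.726%), of which 2 were among the 720 genes called for the pair and for neither single siRNA. That count was between 0 and 2930 when any 1 library was left out, at 0 without either PRMT1 or p53 siRNA library or replicate 1 of both siRNAs. Many genes tied at the lowest adjusted p, and the first 6 of them in the alphabet were Ccnd1, Adgrb2, an adhesion receptor, Anxa8, an annexin, Col16a1, a collagen, Cpeb2, a regulator of translation, and Crip2, a LIM protein. Their interaction was log2 0.60 (adjusted p = 0.0251) for Ccnd1, log2 1.08 (adjusted p = 0.0251) for Adgrb2, log2 0.71 (adjusted p = 0.0251) for Anxa8, log2 0.65 (adjusted p = 0.0251) for Col16a1, log2 -0.91 (adjusted p = 0.0251) for Cpeb2 and log2 1.02 (adjusted p = 0.0251) for Crip2.

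The same contrast was measured in other libraries, of cells given TGF-beta. There both siRNAs against control called 3635 of 15018 genes (24.2%), of which 1849 rose (12.3%) and 1786 fell (11.9%). Of the 2093 genes called without TGF-beta and tested with it, 1855 (88.6%) had the same sign, 1181 (56.4%) were called with the same sign and 55 with the other sign. Among the 12570 genes not called without TGF-beta, 70.35% had the same sign. The median ratio of the log2 change with TGF-beta to that without was 0.82 over the called genes. These genes were chosen by their call without TGF-beta, which by itself can lower the ratio, so it does not show a weaker effect with TGF-beta. The difference between the contrasts was called for 367 genes (2.44%), 163 of them among the 2093.

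**Figure D5:**
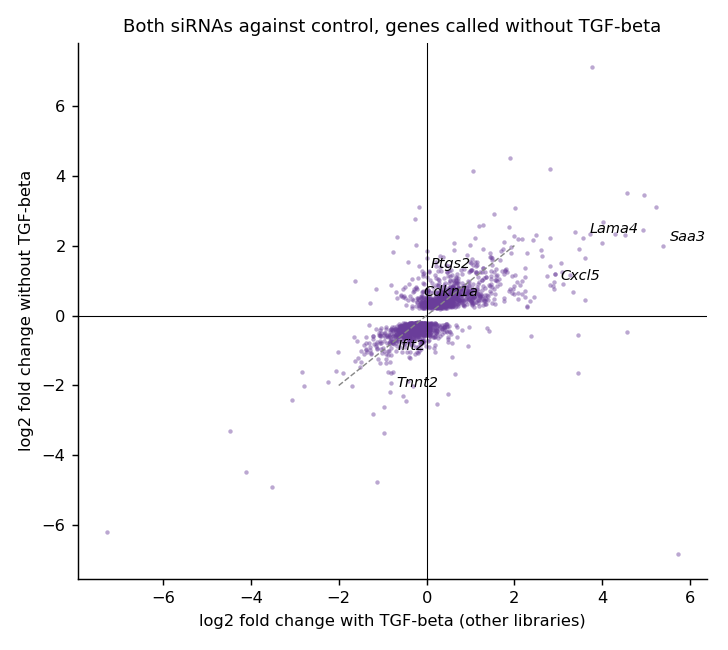
Log2 fold change of both siRNAs against control without TGF-beta (vertical) and with TGF-beta (horizontal, other libraries) for genes called without TGF-beta; the dashed line marks equal values. Most points (88.6%) have the same sign on both axes, and Saa3 (5.38 with and 1.98 without TGF-beta) lies far to the right of the line.

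The cholesterol genes were lower in both settings: with TGF-beta 29 of 30 fell and none rose (median log2 -0.72), with Cyp51 at -1.29 (adjusted p = 4.89e-06). Of the interferon-stimulated genes 23 fell and 4 rose with TGF-beta, and Rsad2 was at -1.12 (adjusted p = 0.000251). Of the complement genes 11 rose and none fell with TGF-beta. Cdkn1a differed between the settings: with TGF-beta it was lower than control (log2 -0.23, adjusted p = 0.0264), and the difference of the contrasts was called (log2 -0.63, adjusted p = 0.00811). Mdm2 did not pass with TGF-beta either (log2 -0.15, adjusted p = 0.105).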

How the data were processed

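The deposited table holds, for each gene of 16 mouse libraries, expected counts made by the authors with TopHat2 and Partek on mm10, per the submitters' processing notes, which give no versions. Gene annotation and strand setting are not given in the sources used here. The values are not all whole (60% of those above 0 are, to within 0.01), and each was rounded before testing. Library totals were 19617874 to 30759317 counts. Counting error follows from these totals, and the SE and intervals of the fits hold it together with the spread between libraries.

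Genes were tested with edgeR 4.0.16 in R 4.3.3 (TMM, filterByExpr, quasi-likelihood F-test with 1 mean per group) on the 8 libraries without TGF-beta, and on the 8 of both siRNAs and control with and without it. Groups came from the sample labels. Adjusted p is by Benjamini-Hochberg over all genes tested, called under 0.05. SE was taken as the log2 fold change divided by the square root of F, and each CPM printed is TMM-scaled. The model was also run on simulated counts, drawn independently for each library with no trend by transcript length. That run does not cover the length trends or the dependence on single libraries seen here. Promoters came from RefSeq (GRCm38.p6), overlapping genes from the gene coordinates deposited with the counts, and transcript lengths from GENCODE vM21.

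Named genes follow a rule: Prmt1, Trp53, Mdm2, Mdm4, Cdkn1a, Wt1, Tbx18, Acta2, Tagln, Snai1, Snai2 and Postn, the 8 largest rises and 8 largest falls, the 6 largest changes of each return class, 6 interactions of lowest adjusted p, ties taken in the order of the alphabet, 6 genes called for the pair and for neither single siRNA, and up to 6 members per list, with at least 5 CPM on average and groups that do not overlap for those chosen by size. The rule gives 204 genes, of which the text names 110, picked to show each group, and a few genes are not reported here; epicardial markers and some overlapping neighbours are named beside them. The members and the 29 lists were chosen with earlier results of these data known. Alternatives were DESeq2 1.42.0, RLE size factors, no count filter, other sets of libraries, a replicate block, a threshold of 0.01, offsets for transcript length and GC content (lowess span 0.3), and each library left out in turn.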

Additional observations from a re-analysis of the deposited data

Results flagged for a closer look

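For 22 of the 110 genes named by rule, the change with both siRNAs against control differed between cells given TGF-beta and cells without it. The difference itself was tested in 1 edgeR fit of the 8 libraries concerned, with Benjamini-Hochberg adjustment over 15018 genes, and is given as the log2 change with TGF-beta minus that without. It was positive for 10 and negative for 12 of them. Over all genes tested the difference was called for 367 (2.44%). Many named genes were picked for a large change or a low adjusted p without TGF-beta, and the difference reuses those libraries. More differences, and smaller changes with TGF-beta, can follow from that choice, so the count is not a result about these genes.

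Saa3 was at log2 5.38 ± 0.28 with TGF-beta and 1.98 ± 0.12 without (difference 3.40, adjusted p = 0.00145). Cxcl5 was at log2 2.89 ± 0.14 with TGF-beta and 0.85 ± 0.12 without (difference 2.04, adjusted p = 0.000659). C1s1 was at log2 2.25 ± 0.09 with TGF-beta and 0.52 ± 0.07 without (difference 1.73, adjusted p = 0.000152). Cxcl1 was at 1.76 with and 0.51 without (difference 1.26, adjusted p = 0.00106), and C3 was at 1.97 with and 0.74 without (difference 1.23, adjusted p = 0.00222). In these 5 genes both siRNAs were called above control in both settings, and the rise was larger with TGF-beta.

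Other genes that rose without TGF-beta did not pass against control with it. Ptgs2 was at log2 -0.08 ± 0.06 with TGF-beta and 1.19 ± 0.07 without (difference -1.27, adjusted p = 0.0002). Csrp2 was at log2 -0.07 ± 0.08 with TGF-beta and 1.12 ± 0.10 without (difference -1.20, adjusted p = 0.00145). Col18a1 was at 0.27 with and 1.27 without (difference -1.01, adjusted p = 0.00695), and Fosl1 was at 0.08 with and 1.005 without (difference -0.93, adjusted p = 0.00974). Flt1 was at -0.28 with and 0.71 without (difference -0.99, adjusted p = 0.0262), and Kdr was at 0.20 with and 1.16 without (difference -0.96, adjusted p = 0.0364). Cyr61 was at -0.10 with and 0.57 without (difference -0.67, adjusted p = 0.0265), and Fas was at -0.12 with and 0.55 without (difference -0.67, adjusted p = 0.0422). The sign turned for another pair of genes: Id3 was at -0.54 with and 0.75 without (difference -1.29, adjusted p = 0.0107), and Cdkn1a was at -0.23 with and 0.40 without (difference -0.63, adjusted p = 0.00811).

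The fall was deeper with TGF-beta for Hmgcs1, of cholesterol synthesis, and Psat1, of serine synthesis. Hmgcs1 was at -1.06 with and -0.58 without (difference -0.48, adjusted p = 0.0257), and Psat1 was at -0.96 with and -0.50 without (difference -0.46, adjusted p = 0.0265). Other falls without TGF-beta were smaller with it, or turned to a rise for Spp1. Tnnt2 was at -0.84 with and -2.19 without (difference 1.35, adjusted p = 0.00412), and Ogn was at -0.05 with and -0.71 without (difference 0.66, adjusted p = 0.00304). Col11a1 was at -0.09 with and -0.76 without (difference 0.67, adjusted p = 0.0146), and Sema3d was at -0.13 with and -0.95 without (difference 0.82, adjusted p = 0.0174). Spp1 was at 0.49 with and -0.67 without (difference 1.16, adjusted p = 0.00437).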

How the results depend on the processing

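Of 110 named genes, 91 were called for both siRNAs against control. No named gene called in the main fit, or in the fit compared with it, differed in sign between them. Some genes called in neither did change sign between fits, among them Ly6a (log2 -0.21 to 0.15), Dnajc6 (-0.32 to 0.13) and Scrg1 (-0.34 to 0.093). The 2096 genes called became 690 with the 16 libraries in 1 fit, 607 with the 4 libraries alone, 650 at an adjusted p under 0.01, 3287 with length offsets and 3392 with length and GC offsets, and 696 to 2694 with any 1 library left out. The 108 interactions became 0 with the 16 libraries and 0 at the stricter threshold, 2331 without the count filter, 682 with DESeq2, 406 with length offsets, 439 with length and GC offsets and 41 with length offsets and the 16 libraries, and 0 to 2930 with 1 library left out.

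For PRMT1 siRNA, the 1205 changes still present, 892 back and 16 opposite became 479, 63 and 1 with the 16 libraries and 418, 182 and 1 at the stricter threshold. Still changed were 762 with DESeq2, 2134 with length offsets and 2201 with length and GC offsets (562 to 1074 with 1 library left out). Back were 352 with length offsets and the 16 libraries (31 to 1571). Opposite were 112 without the filter, 30 with length offsets, 33 with length and GC offsets and 3 with length offsets and the 16 libraries (3 to 39).

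For p53 siRNA, the 267 still changed, 611 back and 129 opposite became 71, 178 and 27 with the 16 libraries, 59, 181 and 21 at the stricter threshold, 628, 934 and 293 with length offsets and 679, 1001 and 321 with length and GC offsets. Still changed were also 453 and opposite 251 without the filter, and still changed 177 with DESeq2. With 1 library left out they were 43 to 250, 70 to 1035 and 20 to 124. With a narrower margin, or one of 2-fold, in place of 1.5-fold, the genes back were 637 or 936 for PRMT1 siRNA and 414 or 653 for p53 siRNA. With TGF-beta, the 3635 genes became 2023 with the 16 libraries and 2378 with DESeq2 (1323 to 4125), and the 367 differences 195 with the 16 libraries, 955 without the filter and 924 with length offsets (93 to 341). The cause of these shifts was not tested. RLE size factors moved none of these counts by over 1.5 times. List counts of 1 to 3 genes also moved by over 1.5 times without some libraries.

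Same-numbered libraries were not treated as paired in the main fit, and the labels do not say whether they were. The correlations of their deviations were 0.044 (both siRNAs with PRMT1 siRNA), -0.25 (both with p53 siRNA) and 0.279 (both with control). They were -0.0756 (PRMT1 with p53 siRNA), 0.0115 (PRMT1 siRNA with control) and -0.115 (p53 siRNA with control). These values do not settle whether the libraries were paired. With a replicate block, 2201 genes were called for both siRNAs, 380 for the interaction and 823 for the difference with TGF-beta.

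The number of genes called rests on 2 libraries per group and on replicate 1 of both siRNAs, without which it was lowest among the fits with 1 library left out. Genes in the class not decided may have returned or stayed. The offsets for GC content, those for length in the fit of 16 libraries and those with TGF-beta were added after seeing the data.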
